A study of Mus musculus with 3 samples.

Results

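Reelin signaling genes were described in ATAC-seq peak lists of FACS-sorted mouse cortical projection neurons. In ATAC-seq a transposase cuts and tags open DNA, so that a peak marks an accessible stretch of chromatin. The members were 8 genes of the pathway, Reln, Lrp8, Vldlr, Dab1, Fyn, Crk, Crkl and Pafah1b1, of 21900 protein-coding genes in the RefSeq table, and their regions were those overlapping the mm10 gene body plus 10 kb on each side. Callosal projection neurons (CPN), which connect the cerebral hemispheres, were represented by 2 libraries, CPN 1 and CPN 2, and corticospinal motor neurons (CSMN), which project to the spinal cord, by 1 library. Each library came from 50000 sorted viable cells of mouse brain, per the labels. For the mice, the sources used here give no strain, age or genotype, and they name no sort marker. The genes were selected on these peak lists, for an excess at Dab1 of regions with a peak in both CPN libraries and not in CSMN, so the counts by cell type below are a description and carry no test. With a single CSMN library there was no replicate check on that side, and the gap between CPN 1 and CPN 2 is the only spread between replicates.

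Reelin is a large secreted glycoprotein that Cajal-Retzius cells of the marginal zone release in the developing cortex, and interneurons release later. It binds the lipoprotein receptors that Lrp8 (also called ApoER2) and Vldlr encode. The cytoplasmic tails of these receptors hold the adaptor Dab1, which the Src family kinase Fyn phosphorylates on tyrosine, and phosphorylated Dab1 recruits the adaptors Crk and Crkl. Pafah1b1 encodes LIS1, a regulator of the motor protein dynein that acts with this pathway in neuronal migration. Mice without reelin, without Dab1 or without both receptors have disordered cortical layers.

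The libraries differed in ways that bear on every count. CPN 1 held 134018 peaks, CPN 2 held 158779 and CSMN held 98067. The share of peaks whose −log10 q reached 5 in CPN 1, CPN 2 and CSMN was 72.4%, 65.4% and 55.2%, where q is the peak caller's adjusted p. The sources used here give no read depth, and the part of depth in the results was not tested. Peaks of the 3 lists that overlapped by at least 1 bp were joined into 204313 regions. A region is called CPN-only here if both CPN lists and not the CSMN list had a peak in it, CSMN-only if the CSMN list alone did, and an all-library region if every list did. A CPN-only region thus had to be found in 2 libraries and a CSMN-only region in 1. Marker lists of the sorted types did not separate the libraries by these counts. The 8 CPN marker genes had 193 regions, of which 41 were CPN-only (21.2%) and 17 CSMN-only (8.81%). The 8 CSMN marker genes had 197 regions, with 45 (22.8%) and 18 (9.14%). Over all regions of the genome these shares were 19.4% and 11.8%.

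All listed gene starts of the 8 members were accessible in both cell types. RefSeq listed 12 starts for the 8 genes, and each lay in an all-library region. In all, 13 regions of the members lay within 1 kb of any listed start and every list had a peak in each, against 70.3% of such regions over the genome. The 250 bases before the start are printed for 4 of them, namely the 2 starts of Dab1, because the counts turn on this gene, the start of Reln, the ligand, and the start of Crkl. At Crkl the peak summit fell inside these bases in every library, as it also did at Crk, Fyn and the second start of Vldlr, which are not printed. The sequences are from RefSeq on GRCm38.p6, the build named mm10, and run 5′ to 3′ on the strand of the gene up to the base before the start. Capitals mark matches, on either strand, to any of 8 short motifs that were searched.
Dab1 first start, chr4:103619250-103619499, plus strand: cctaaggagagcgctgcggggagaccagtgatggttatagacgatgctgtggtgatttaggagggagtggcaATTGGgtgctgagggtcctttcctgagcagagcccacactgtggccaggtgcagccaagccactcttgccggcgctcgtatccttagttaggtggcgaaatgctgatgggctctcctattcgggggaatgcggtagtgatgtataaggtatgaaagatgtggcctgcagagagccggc
Dab1 internal start, chr4:104367288-104367537, plus strand: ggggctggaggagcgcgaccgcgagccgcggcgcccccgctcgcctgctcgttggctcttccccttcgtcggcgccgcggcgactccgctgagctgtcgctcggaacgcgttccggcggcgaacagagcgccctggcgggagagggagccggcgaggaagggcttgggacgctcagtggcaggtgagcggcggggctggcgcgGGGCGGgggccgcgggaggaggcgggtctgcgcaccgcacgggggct
Reln start, chr5:22344706-22344955, minus strand: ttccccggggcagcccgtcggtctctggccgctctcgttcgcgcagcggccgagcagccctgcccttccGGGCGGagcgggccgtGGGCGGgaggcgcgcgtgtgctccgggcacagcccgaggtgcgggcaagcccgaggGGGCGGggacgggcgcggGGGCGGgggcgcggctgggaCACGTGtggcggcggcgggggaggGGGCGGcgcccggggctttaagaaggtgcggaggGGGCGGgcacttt
Crkl start, chr16:17451735-17451984, plus strand: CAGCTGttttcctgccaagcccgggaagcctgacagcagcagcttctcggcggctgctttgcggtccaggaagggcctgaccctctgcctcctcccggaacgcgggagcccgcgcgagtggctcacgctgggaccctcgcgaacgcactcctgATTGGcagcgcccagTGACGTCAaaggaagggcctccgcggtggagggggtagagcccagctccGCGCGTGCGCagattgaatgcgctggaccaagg
The Dab1 starts differed in base composition, with 56.4% G and C and 10 CpG before the first start and 78.0% and 40 CpG before the internal start. The Reln start had 80.0% G and C, above 98.8% of the 32851 listed starts of all genes, and the Crkl start had 67.6%. The motifs searched were GGGCGG, known as the GC box of Sp and KLF factors, TATAAA, the TATA box, and CCAAT, the box of that name. The others were the cAMP response element TGACGTCA, the NRF1 motif, a T-box motif spelled TCACACCT, and the E-boxes CACGTG as well as CAGCTG. The Reln window held GGGCGG at 6 places and CACGTG at 1 place. GGGCGG is found in 32.7% of all listed starts and CACGTG in 6.02%. The Crkl window held TGACGTCA from -82 to -75, the NRF1 motif from -33 to -24, CAGCTG and CCAAT, counted from the start. TGACGTCA is found in 1.55% of all listed starts, the NRF1 motif in 3.74%, CAGCTG in 13% and CCAAT in 33.8%. The first start of Dab1 held CCAAT once and the internal start held GGGCGG once. No matches overlapped in the printed windows, and TATAAA, found in 12.4% of listed starts, and TCACACCT, found in 1.12%, were in none of them. These matches are letters in a window and do not show that a factor binds.

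At most of these starts the summits lay close together in the 3 libraries. At the first start of Dab1 the summit stood 6, 10 and 6 bp after the start in CPN 1, CPN 2 and CSMN. At Crkl the summit stood at -50 bp in every library, between the TGACGTCA letters and those of the NRF1 motif printed above. At Crk it stood at -59, -62 and -58 bp and at Pafah1b1 at -497, -497 and -495 bp in CPN 1, CPN 2 and CSMN. At Fyn the summit stood at -68, -110 and -63 bp in the same order of libraries. The Reln summit lay inside the gene, 270, 285 and 221 bp after the start. The internal start of Dab1 had its summit at -395 and -392 bp in the CPN libraries and at -201 bp in the single CSMN library. That region was 2146 bp wide and joined 5 peaks of the 3 lists. Its strongest peak was 1498, 1438 and 2113 bp wide in CPN 1, CPN 2 and CSMN, so the summits come from peaks of unlike extent. The Lrp8 summit lay at -742 and -761 bp in the CPN libraries and at -932 bp in CSMN, in a region 2728 bp wide that joined 7 peaks of the 3 lists.

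The start regions differed in strength among the genes. The value used is the authors' fold enrichment at the summit, a value of each peak within its own list. Among the first starts, Crkl, Fyn, Crk and Pafah1b1 had the higher folds. Crkl had folds of 24.5, 22.1 and 13.7 in CPN 1, CPN 2 and CSMN. Fyn had 23.1, 22.9 and 13.8, and Crk had 19.6, 21.5 and 10.6. Pafah1b1 had 15.5, 15.7 and 12. The receptors, the ligand and Dab1 were lower. Vldlr, whose 2 listed starts share a region, had folds of 8.5, 7.73 and 6.61, and Lrp8 had 6.32, 6.03 and 5.13 at its first start. Reln had 6.50, 6.61 and 6.10. Dab1 had 7.59, 7.20 and 4.67 at its first start and 8.88, 7.45 and 5.61 at its internal start. The CSMN fold was lower than both CPN folds at every start named here. It was also lower in the median over all-library regions of the genome, which was 6.28, 6.43 and 3.61 in CPN 1, CPN 2 and CSMN.

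Away from the starts, CPN-only regions were the more frequent of the library-specific kinds at most members. The 8 genes held 266 regions, of which 73 were CPN-only, 16 were CSMN-only and 73 were all-library regions. A single CPN library alone held 43 regions (CPN 1) and 50 regions (CPN 2), and 7 and 4 regions joined CSMN to CPN 1 and to CPN 2. CPN-only regions made up 27.4% of the regions of the members, against 19.4% of all regions of the genome. CSMN-only regions made up 6.02% of the regions of the members, against 11.8% of all regions. Dab1, the gene for which the set was picked, is part of these shares. Over the other 7 members, 36 of 149 regions were CPN-only (24.2%) and 9 were CSMN-only (6.04%). Protein-coding genes with at least 30 regions had median shares of 22% and 7.97%. CPN-only regions outnumbered CSMN-only regions at 7 of the 8 genes, and Pafah1b1 had none of either kind. Over the 18794 protein-coding genes with a region, 44.2% had more CPN-only and 16.9% more CSMN-only regions, and the median gene had 5 regions in all. None of the CPN-only or CSMN-only regions of the members lay within 1 kb of a listed start, where 9.41% and 4.2% of the regions of the genome were of these kinds. Among the 253 regions of the members away from listed starts, 28.9% were CPN-only, against 20.5% over the genome, and 6.32% were CSMN-only, against 12.5%.

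**Figure D1:**
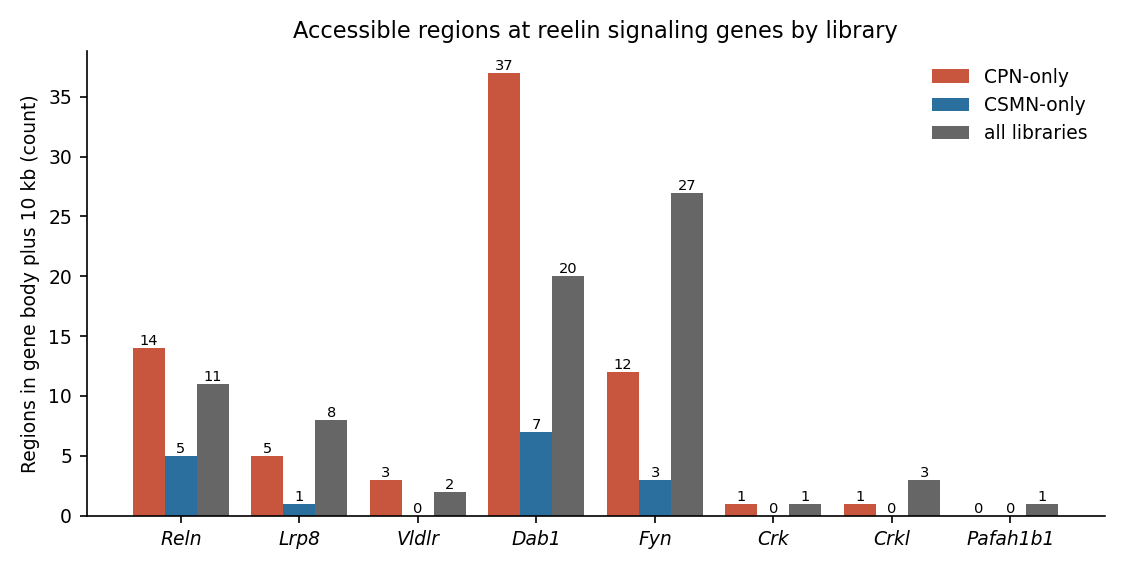
Number of regions (vertical axis, count) in the gene body plus 10 kb each side of the 8 genes, by class, with CPN-only regions at left, CSMN-only regions in the middle and all-library regions at right of each gene. Counts are not scaled to gene length. Dab1, the longest member, has 37 CPN-only regions (31.6%, against 19.4% of all regions) and 7 CSMN-only regions (5.98%, against 11.8%). Fyn has more all-library regions, 27 (45.8%, against 30.6% of all regions), than any other member.

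The adaptor gene Dab1 held the largest part of this excess. Dab1 (gene ID 13131) spans chromosome 4 from 103619500 to 104744844 on the plus strand, 1125345 bp, and had 117 regions. Of these, 37 were CPN-only (31.6%, against 19.4% of all regions), 7 were CSMN-only (5.98%, against 11.8%) and 20 were all-library regions (17.1%, against 30.6%). A further 24 regions were found in CPN 1 alone and 27 in CPN 2 alone, so the replicates disagreed on more regions than they shared without CSMN. Dab1 carried 84, 88 and 30 peaks in CPN 1, CPN 2 and CSMN. Peaks with a −log10 q of at least 5 numbered 55, 62 and 9. Both CPN libraries thus lay far above the CSMN library and close to each other. Marker genes of some other cell types that a sort of brain cells could hold had CPN-only shares as high as that of Dab1. The 6 oligodendrocyte lineage genes had 30 CPN-only regions (34.1%) and 5 CSMN-only regions, and the 6 endothelial and mural genes had 31 (33.7%) and 7. The 6 astrocyte genes had 12 (19.4%) and 0, the 6 microglia genes 7 (16.7%) and 2, and the 5 pan-excitatory neuron genes 8 (21.1%) and 1. The part of such cells in the Dab1 counts was not tested. The length of Dab1 matters for any ranking by counts, as 17 protein-coding genes had more regions and 7 had a larger difference of CPN-only minus CSMN-only regions than the 30 of Dab1. Among the 882 protein-coding genes with at least 30 regions, 108 had a higher CPN-only share than Dab1, and the median share was 22%. The median CSMN-only share of these 882 genes was 7.97%, and 314 of them had a lower one than Dab1. When each list was kept to its 98067 peaks of lowest p, the number in the CSMN list, Dab1 had 22 CPN-only regions (30.6% of its regions, against 16% over the genome) and 9 CSMN-only regions (12.5%, against 22.2%). When each list was kept to peaks of strong q, a −log10 q no lower than 5, Dab1 had 36 CPN-only regions (51.4%, against 29.5% over the genome) and 1 CSMN-only region (1.43%, against 4.05%).

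CPN-only regions ran along the whole of Dab1. Each stretch of 100 kb from the first start to the end of the gene held between 1 and 6 of them. The median gap between the summits of neighboring CPN-only regions was 21.4 kb, and a single neighboring pair lay within 5 kb. The internal start divides the gene into 748 kb before it and 377 kb after it. The stretch before it held 19 CPN-only, 4 CSMN-only and 7 all-library regions, and the stretch after it held 17, 3 and 12. Regions were denser after the internal start, at 15.9 regions per 100 kb, than before it, at 7.22. The CPN-only share was 28.3% after the internal start and 35.2% before it. Exons and introns were not distinguished, since the gene table used here gives no exons. Of the 37 CPN-only regions, 2 had a CSMN peak within 1 kb, and the median distance to the nearest CSMN peak was 13668 bp.

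**Figure D2:**
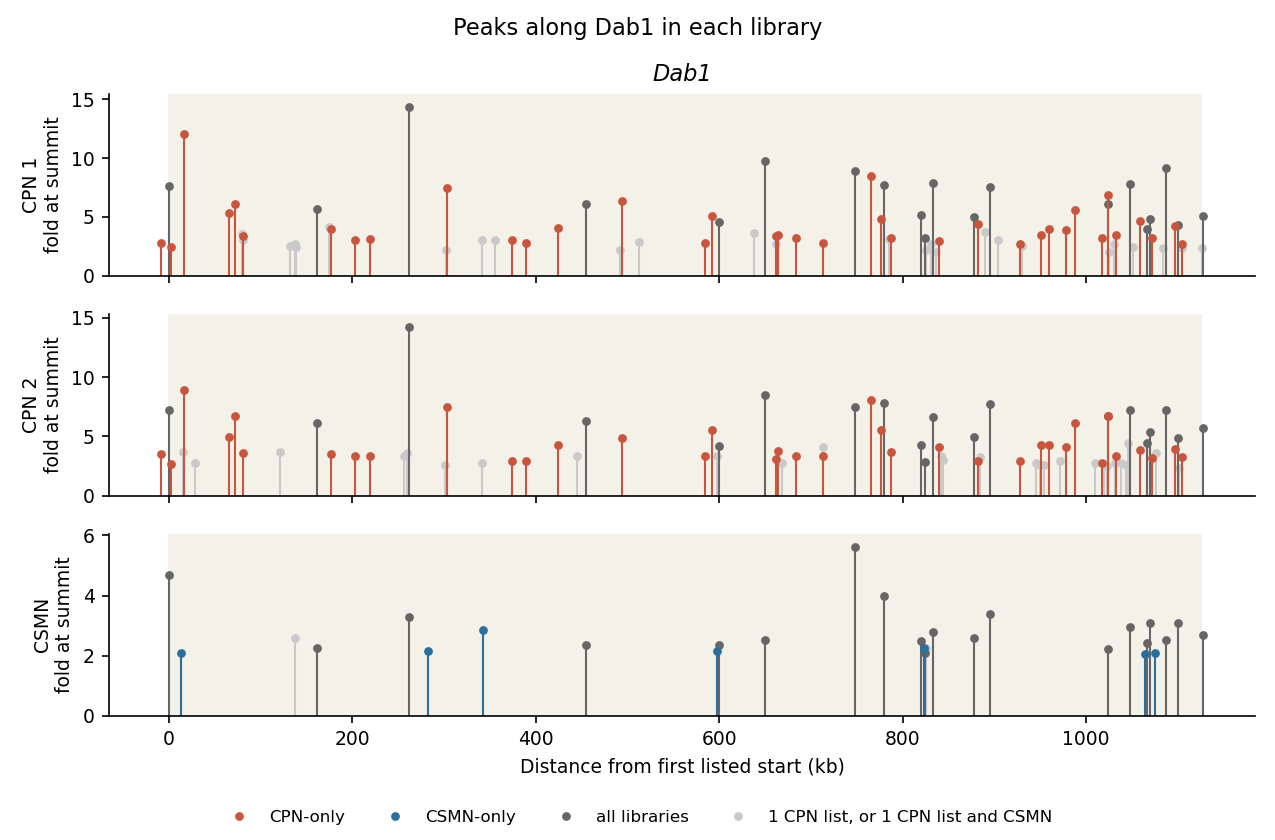
Peaks along Dab1 in CPN 1, CPN 2 and CSMN (panels from top to bottom), with the distance of the region's strongest summit from the first listed start in kb on the horizontal axis and the authors' fold on the vertical axis, whose scale differs between panels. CPN-only regions are spread over the shaded gene body, and in CSMN the highest points stand at the 2 listed starts, with folds of 4.67 and 5.61.

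The strongest CPN-only regions of Dab1, ordered by the lower of their 2 CPN −log10 q values, were well above the threshold of the lists. The CPN-only regions of the other genes are ordered in the same way, and all-library regions by their CPN 1 fold. The first, at chr4:103636107-103636751, lay 17038 bp after the first start and had folds of 12 and 8.92 in CPN 1 and CPN 2. Its −log10 q was 114 and 51.2. The second, at chr4:104643441-104643888, had folds of 6.83 and 6.70, and a CSMN peak lay 477 bp from it. The third, at chr4:104384855-104385631, lay 765493 bp after the first start, beyond the internal start, and had folds of 8.48 and 8.04. The fourth, at chr4:103922285-103922986, had folds of 7.42 and 7.47, and the fifth, at chr4:103691818-103692008, had 6.13 and 6.72 with the nearest CSMN peak 58494 bp away. Over all 37 the fold ran from 2.4 to 12 with a median of 3.47 in CPN 1, and from 2.63 to 8.92 with a median of 3.65 in CPN 2. Those medians equal the medians of all CPN-only regions of the genome, 3.47 and 3.65. A −log10 q of at least 5 in both CPN libraries was reached by 25 of the 37 (67.6%), against 60.3% of all CPN-only regions. CSMN-only regions of Dab1 were weak, with folds from 2.05 to 2.86 and a median of 2.16, against 2.34 for all CSMN-only regions. The strongest, at chr4:103961783-103961976, had a fold of 2.86 and a −log10 q of 5.38, and it was the only CSMN-only region among the members to reach 5.

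Most all-library regions of Dab1 ranked lower in CSMN, except at the gene starts. These ranks come from the same 3 lists and from the gene picked for its missing CSMN peaks. They are thus not independent of the counts above and carry no test. To set ranks side by side, the fold of each all-library region was given as a percentile among the 62435 all-library regions of the genome, separately in each library. Away from listed starts, 16 of the 18 all-library regions of Dab1 had a CSMN percentile below both CPN percentiles, and 1 had it above both. Over the genome 41.5% of such regions away from listed starts lay below both and 41.4% above both. The median percentiles of these 18 regions in CPN 1, CPN 2 and CSMN were 45.8, 47.7 and 17.7. At the first start of Dab1 the percentiles in CPN 1, CPN 2 and CSMN were 60.8, 56.5 and 65.8, and at the internal start they were 69.0, 58.2 and 74.0, so CSMN ranked above both CPN libraries at these 2 regions. Over all regions near listed starts, 47.3% of the all-library regions of the genome had CSMN above both and 34.9% below both. The strongest all-library region of Dab1 by CPN 1 fold, at chr4:103881662-103882162, lay 262342 bp after the first start. Its folds in CPN 1, CPN 2 and CSMN were 14.3, 14.2 and 3.3, at percentiles of 87.6, 86.5 and 42.7. The region at chr4:104269477-104270439 had the widest drop, with percentiles of 73.3 and 65.3 in the CPN libraries and 15.2 in CSMN. At Dab1 the CPN libraries differed, without regard to sign, by at most 13.9 percentile points at an all-library region, with a median of 5.79. The CSMN percentile less the CPN mean, a signed value, ran from -54.1 to 10.4 with a median of -17.1. Over the all-library regions of the genome the CPN difference reached 48.8 with a median of 5.11. There the signed value ran from -83.9 to 81.6 with a median of 0.323. The median −log10 q at the all-library regions of Dab1 took the values 29.3, 22.7 and 4.3 for CPN 1, CPN 2 and CSMN, against 31.5, 26.8 and 10.9 over the genome.

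**Figure D3:**
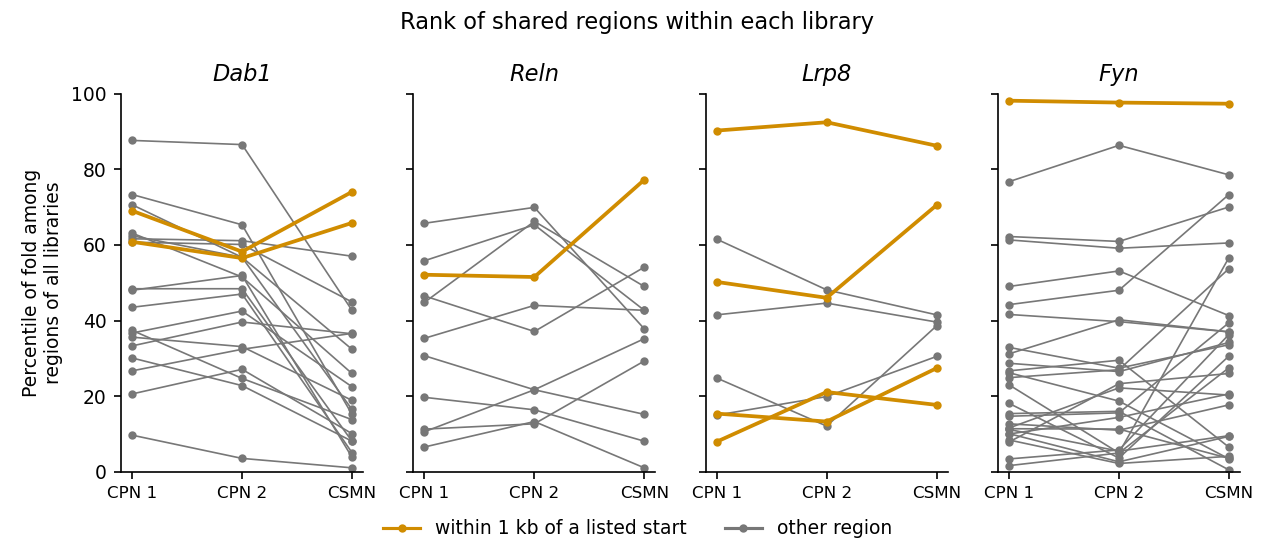
Percentile of the fold (vertical axis) of each all-library region of Dab1, Reln, Lrp8 and Fyn in CPN 1, CPN 2 and CSMN (horizontal axis), ranked among the 62435 all-library regions of the genome, with a line joining the values of a region and regions within 1 kb of any listed start in orange. At Dab1, 16 of the 18 other regions drop in CSMN below both CPN values, while both start regions lie above them.

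The kinase gene Fyn showed a different makeup. Fyn (gene ID 14360, chromosome 10 from 39369743 to 39565381, plus strand) had 59 regions over 195639 bp, or 27.4 per 100 kb of its window, against 10.2 at Dab1. All-library regions were the largest class, 27 of 59 (45.8%, against 30.6% of all regions), followed by 12 CPN-only (20.3%) and 3 CSMN-only regions (5.08%). The CPN-only share was near the 19.4% of the genome. Peaks numbered 49 in CPN 1, 53 in CPN 2 and 37 in CSMN, a smaller gap between the cell types than at Dab1. Away from the start, 13 of its 26 all-library regions had a CSMN percentile above both CPN percentiles and 6 below both. When each list was kept to peaks of strong q, this turned to 5 above and 7 below, of 14, against 41.1% and 42.1% over the genome. The strongest CPN-only region of Fyn, at chr10:39389425-39389890, had folds of 4.14 in CPN 1 and 5.15 in CPN 2, below the strongest of Dab1. A CSMN peak lay within 1 kb of 5 of the 12 CPN-only regions, and the median distance was 1246.5 bp. A region 3′ of the gene, at chr10:39571060-39571590, ranked higher in CSMN, with percentiles of 23 and 5 in the CPN libraries and 56.6 in CSMN.

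The downstream adaptors and LIS1 had little beyond their starts. Crk (gene ID 12928, chromosome 11 from 75679194 to 75708428, plus strand) had 4 regions, with 1 CPN-only region in its 3′ flank at chr11:75717038-75717192 and folds of 3.24 in CPN 1 and 3.07 in CPN 2. Crkl (gene ID 12929, chromosome 16 from 17451985 to 17487440, plus strand) had 5 regions, and 3 of them overlapped the neighboring gene Aifm3, including its CPN-only region with folds of 2.80 and 2.77. A region inside Crkl was found in CPN 2, with a fold of 5.84, and in CSMN, with 2.26, and not in CPN 1. Pafah1b1 (gene ID 18472, chromosome 11 from 74673949 to 74724384, minus strand) had 4 regions, of which the start was shared, 2 were found in CPN 1 alone and 1 in CPN 2 alone. The start of Pafah1b1 ranked higher in CSMN, with percentiles of 89.7 and 89.4 in the CPN libraries and 95.1 in CSMN. The start of Crk ranked lower in CSMN, at 95.3 and 96.6 in the CPN libraries and 92.6 in CSMN. None of these 3 genes had a CPN-only region when the gene body alone was counted.

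At the ligand gene Reln, CPN-only regions again outnumbered CSMN-only ones, while its all-library regions ranked lower in CSMN in some cases and higher in others. Reln (gene ID 19699, chromosome 5 from 21884454 to 22344705, minus strand) had 52 regions, of which 14 were CPN-only (26.9%, against 19.4% of all regions), 5 CSMN-only (9.62%, against 11.8%) and 11 all-library regions (21.2%, against 30.6%). Peaks numbered 36 in CPN 1, 41 in CPN 2 and 18 in CSMN. Among the 882 genes with at least 30 regions, 239 had a higher CPN-only share and 546 a lower CSMN-only share. The median CSMN-only share of these 882 genes was 7.97%, below that of Reln. With lists of equal length Reln had 6 CPN-only and 6 CSMN-only regions, 16.7% of its regions each, against 16% and 22.2% over the genome. The first 100 kb after the start held 5 CPN-only regions and no CSMN-only region, whereas the stretch from 300 to 400 kb held 2 CPN-only and 4 CSMN-only regions. The strongest CPN-only region, at chr5:21947430-21947909, lay 396956 bp after the start with folds of 6.06 in CPN 1 and 6.01 in CPN 2, and a CSMN peak lay 209 bp from it. Within 2 kb of it stood a CSMN-only region at chr5:21948391-21948605, with a fold of 2.43, and the strongest all-library region of Reln, at chr5:21948705-21949672, with folds of 8.31, 9.27 and 3.12 in CPN 1, CPN 2 and CSMN. The next CPN-only region by the lower −log10 q, at chr5:22247833-22248190, had folds of 5.44 and 5.70 and no CSMN peak within 23099 bp. Away from the start, 4 of 10 all-library regions had CSMN below both CPN percentiles and 3 above both. At the start CSMN ranked higher, with percentiles of 52.1 and 51.5 in the CPN libraries and 77.2 in CSMN. Bulk peak lists cannot tell whether a Reln region was open in the projection neurons or in a few reelin-producing cells of the sort. The 7 Cajal-Retzius marker genes had 27 CPN-only regions (25.2%, against 19.4% of all regions) and 7 CSMN-only regions (6.54%, against 11.8%). Each of the 7 genes had an all-library region, as did every marker gene of the other lists. The 8 interneuron marker genes had 18 CPN-only regions (17.5%) and 16 CSMN-only regions (15.5%), of which Adarb2 alone held 5 and 13. The part of such cells in the Reln regions was not tested.

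**Figure D4:**
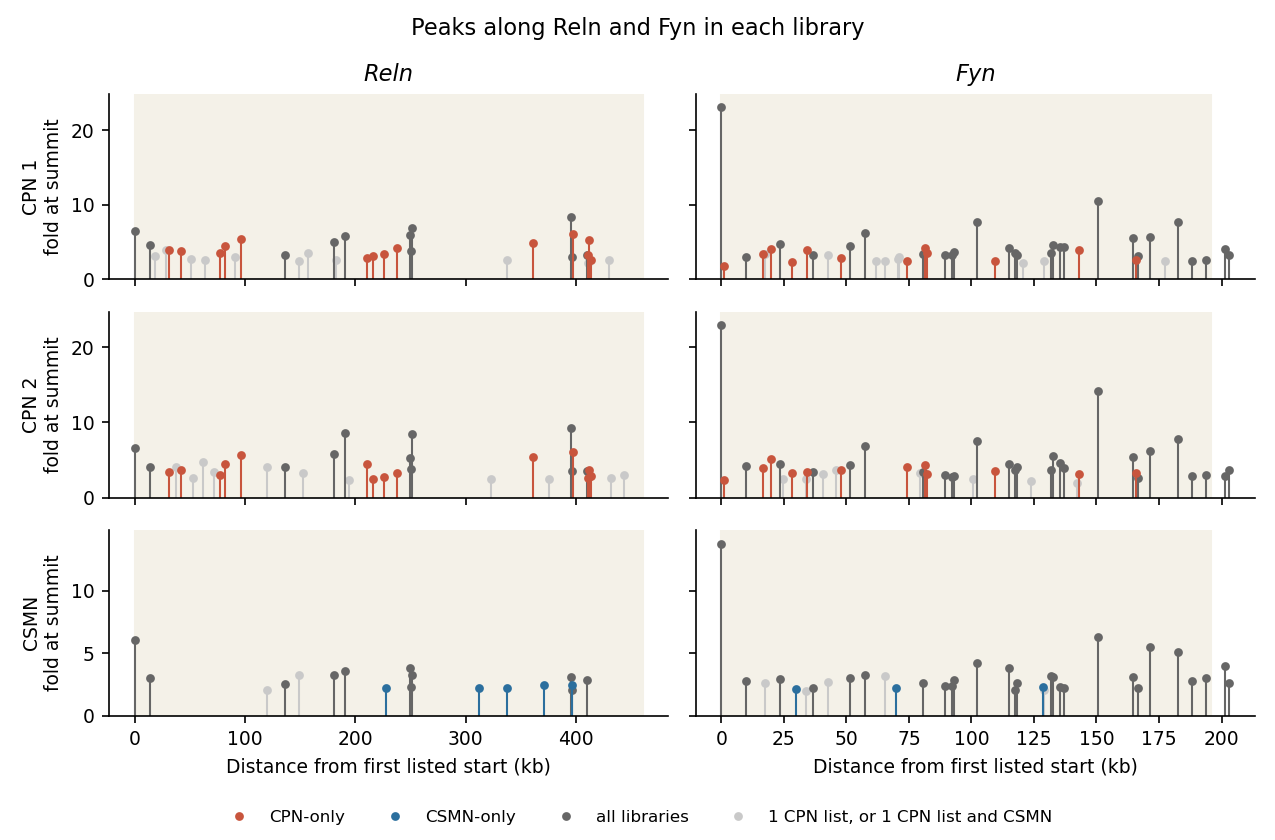
Peaks along Reln (left) and Fyn (right) in CPN 1, CPN 2 and CSMN from top to bottom, with the distance from the first listed start in kb on the horizontal axis and the authors' fold on the vertical axis, whose scale differs between libraries. At Fyn, 27 of 59 regions are shared by all libraries, against 11 of 52 at Reln.

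The receptor genes had fewer regions than Dab1, Reln or Fyn. Lrp8 (gene ID 16975, chromosome 4 from 107802200 to 107876840, plus strand) had 19 regions, with 5 CPN-only, 1 CSMN-only and 8 all-library regions. These were 26.3%, 5.26% and 42.1% of its regions, against 19.4%, 11.8% and 30.6% of all regions. With lists of equal length Lrp8 had 15 regions. Of these, 3 were CPN-only (20%, against 16% over the genome) and 1 was CSMN-only (6.67%, against 22.2%). Its 3 strongest CPN-only regions lay between the first and the second listed start. The strongest, at chr4:107817366-107817956, lay 14781 bp after the first start with folds of 6.1 and 6.91 in CPN 1 and CPN 2. The lower of its −log10 q values, 53.4 and 56.8, was the highest such value of any CPN-only region of the members. The next, at chr4:107821104-107821578, had folds of 3.62 and 3.64, and the third, at chr4:107820394-107820645, had 2.50 and 2.99. The CSMN-only region of Lrp8, at chr4:107846618-107846765, had a fold of 2 and a −log10 q of 2.22. The listed internal starts of Lrp8 were weaker than the first, with folds of 3.05, 4.08 and 2.60 at the second and 3.58, 3.52 and 2.80 at the third in CPN 1, CPN 2 and CSMN. At the first start of Lrp8 the percentiles were 50.2 and 46.0 in the CPN libraries and 70.5 in CSMN. The strongest all-library region of the Lrp8 window, with folds of 15.8, 17.6 and 8.12, overlapped the neighboring gene Magoh and not Lrp8.

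Vldlr (gene ID 22359, chromosome 19 from 27216480 to 27254231, plus strand) had 6 regions, of which 3 were CPN-only, none CSMN-only and 2 all-library regions. The CPN-only share was 50%, against 19.4% of all regions, and the all-library share was 33.3%, against 30.6%. CSMN-only regions made up 11.8% of all regions. The strongest CPN-only region, at chr19:27210888-27211512, lay upstream of the gene, at -5400 bp, with folds of 4.63 in CPN 1 and 5.55 in CPN 2. Within the gene a CPN-only region at chr19:27227235-27227467 had folds of 3.12 and 3.8, and beyond its 3′ end a region at chr19:27260180-27260488 had 3.35 and 2.78. The start region ranked higher in CSMN, at percentile 80.1, than in CPN 1 at 66.9 and CPN 2 at 60.2. With the gene body alone, 1 of the 3 CPN-only regions of Vldlr was left.

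A wider list of 41 genes of the reelin pathway was described in the same way. These genes had 554 regions, of which 118 were CPN-only (21.3%, against 19.4% of all regions), 37 CSMN-only (6.68%, against 11.8%) and 190 all-library regions. More CPN-only regions were found at 30 genes, more CSMN-only regions at 2 genes and equal numbers at 9, and the median difference was 1 region. Over all protein-coding genes with a region, 44.2% had more CPN-only and 16.9% more CSMN-only regions. The median one of those genes had only 5 regions, so the tallies over genes compare genes of unlike size. Protein-coding genes with at least 30 regions had a median CPN-only share of 22% and a median CSMN-only share of 7.97%. Dock1, which encodes an exchange factor for the GTPase Rac1 that binds Crk, had 13 CPN-only and 3 CSMN-only regions. Lrp1, a large lipoprotein receptor, had 9 and 0, and Adamts2, a metalloproteinase that can cleave reelin, had 8 and 1. Pafah1b2, which encodes a catalytic partner of LIS1, had 6 and 0 within its 9 regions, and the kinase gene Gsk3b had 6 and 1. Dab2ip, a regulator of Ras GTPases that can bind Dab1, had 9 and 5, and Pik3r1, a regulatory subunit of phosphoinositide 3-kinase, had 6 and 2. The 2 genes that went the other way were Adamts3, a reelin-cleaving protease, with 3 CPN-only and 5 CSMN-only regions, and the integrin gene Itga3 with 0 and 2; these were named after their values were seen.

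The genes most like Dab1 were sought over the 3 libraries by the shares of their regions in the 7 possible combinations of lists. Among genes with at least 30 regions, the smallest Euclidean distances in percentage points were those of Med13l (2.37), Hdac4 (2.75), Tmem117 (3.72), Dock1 (4.01) and Nfatc2 (5.02). Med13l had 17 CPN-only and 3 CSMN-only of 55 regions, and Hdac4 had 17 and 3 of 56. Dock1, which is also in the wider pathway list, had 13 and 3 of 39 regions. It was named from that list by its class counts, which also enter this distance, so its naming in both places is not independent.

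**Figure D5:**
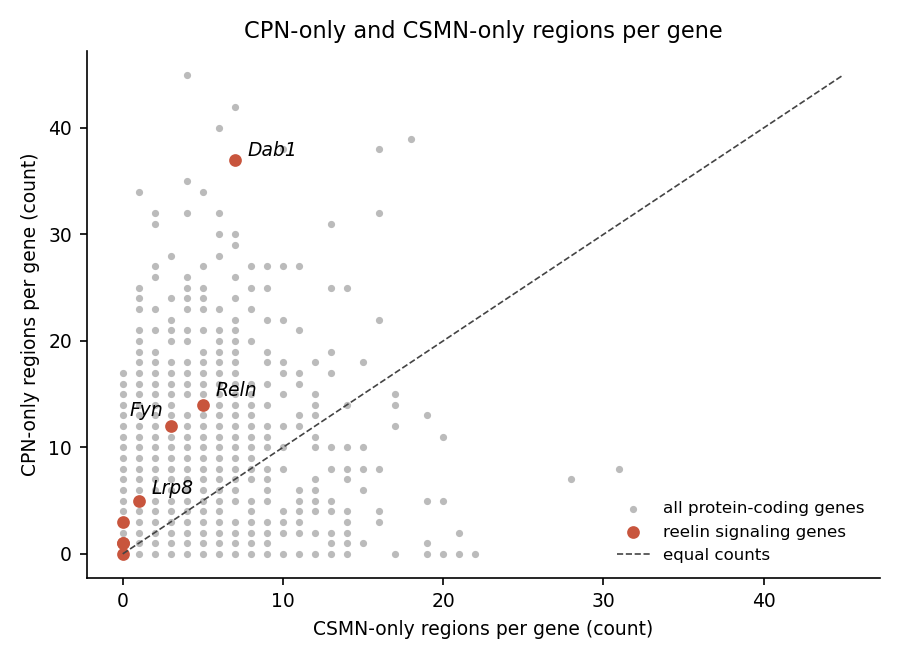
CPN-only regions per gene (vertical axis, count) against CSMN-only regions per gene (horizontal axis, count) for all protein-coding genes with a region, in grey with a single point for each pair of counts, and for the 8 reelin signaling genes in red, with the dashed line at equal counts. Dab1 lies at 37 and 7, and 7 genes have a larger difference.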

How the data were processed

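ATAC-seq peak lists of 2 CPN libraries and 1 CSMN library were used, and groups came from the sample titles. Per the submitters' processing notes, the build was mm10 and the tools were MACS2 2.2.7.1 with bedtools 2.29.2 and BWA 0.7.17, in no stated role. Other steps are not given in the sources used here. Peak names carry a single library, so peaks were taken as called per library. The deposited lists hold, per peak, a fold at the summit, a −log10 p, a −log10 q, the offset of the summit and a score, which was checked to be 10 times the −log10 q in over 99% of peaks; these are the authors' values. Folds were used within a list or as percentiles over the same all-library regions. Peaks overlapping by at least 1 bp were joined with Python 3.11.15 and pandas 2.3.3, and the classing was tested on simulated regions. Gene positions, listed starts and sequences came from RefSeq tables of GRCm38.p6, in which all 8 members were matched. Regions named are those nearest the starts and, per gene, the CPN-only regions with the highest lower −log10 q of the 2 CPN libraries, the CSMN-only regions with the highest −log10 q and the all-library region with the highest CPN 1 fold. A Dab1 and a Fyn region with the widest rank differences and a Crkl region of CPN 2 and CSMN were named after their values were seen. From the wider list, the 6 genes with the largest difference were named, with ties. The members and lists were chosen with earlier results of these data known. Alternatives were a −log10 q of at least 5, equal list lengths of 98067 peaks, an overlap of 50% of the shorter peak, the gene body alone or with 50 kb, the summit in the window, and leaving out each CPN library. No test between cell types was made. Read depth is unknown, so no interval was computed.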

Additional observations from a re-analysis of the deposited data

How the results depend on the processing

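The excess of CPN-only over CSMN-only regions at Dab1 and over the 8 members kept its sign under every alternative run, and no member changed sign, although differences of 0 arose at Reln, Crk and Crkl, and at Pafah1b1, which had 0 from the outset. With equal list lengths Dab1 had 22 CPN-only and 9 CSMN-only regions and the 8 members 41 and 22, whereas over the genome CSMN-only regions, 22.2%, then outnumbered CPN-only regions, 16%; that setting trims the CPN lists alone. When each list was kept to peaks of −log10 q of 5 or more, CSMN-only regions fell to 1 at Dab1 and 3 over the members, and all-library regions to 46, while 36 CPN-only regions were counted at Dab1. Without CPN replicate 1 or 2, where a single CPN list defines the class, CPN-only regions numbered 61 to 67 at Dab1 and 117 to 131 over the members, CSMN-only regions 7 to 10 and 20 to 25, and all-library regions 79 to 80; CPN-only regions were then 67.8% to 69.1% of the regions of Dab1, against 41% to 47.1% of all regions. Alternatives for the ranks were chosen after seeing the data. Away from starts, all-library Dab1 regions with CSMN below both CPN ranks numbered 15 of 17 with equal list lengths, against 41.9% over the genome. They numbered 16 of 18 with ranks by −log10 p, against 41.8%, and 5 of 6 with that limit on q, against 42.1%. Without CPN replicate 1 or 2 a single CPN rank was left, a looser criterion. CSMN then lay below it at 17 and 16 of 18 regions, against 50.5% and 49.6% over the genome. No paired analysis was possible, because there was 1 CSMN library and the labels state no pairing of libraries. The depth of the libraries is unknown, so an absent CSMN peak may be an undetected one.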
